A study of Mus musculus with 20 samples.

Results

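The genes described here are 10 thermogenic genes of brown and beige fat cells, Ucp1, Cidea, Dio2, Ppargc1a, Prdm16, Elovl3, Cox7a1, Cox8b, Ebf2 and Otop1, read in mouse white adipose tissue. They were taken by gene symbol from tables of 56805 annotated genes, so that the set holds 10 of 56805 genes. RNA was sequenced in 20 libraries, 1 per mouse. The first group had 5 mice fed a high-fat diet that drank a water extract of Tibetan tea (high-fat tea), and the second had 5 mice on the same diet that drank water (high-fat water). The other groups had 5 chow-fed mice that drank the extract (chow tea) and 5 chow-fed mice that drank water (chow water). Treatment lasted 10 weeks in all groups. By the design text each library comes from its own mouse. The sources used here name no fat depot, housing temperature, age, sex or batch.

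Brown fat cells burn fuel to make heat, and beige fat cells are cells of the same capacity that arise within white depots, most of all in the cold. Noradrenaline from sympathetic nerves acts on β-adrenergic receptors of these cells and raises cyclic AMP, which both releases fatty acids and turns on thermogenic genes. The heat itself comes from UCP1, a protein of the inner mitochondrial membrane that lets protons flow back without ATP synthesis. White fat cells of most depots hold little of this machinery, and depots differ in how many beige cells they hold.

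The 10 genes were grouped by role. Prdm16 and Ebf2 encode transcription factors of the brown and beige lineage, and Ppargc1a encodes PGC-1α, a coactivator of mitochondrial genes that cyclic AMP induces. Dio2 encodes type 2 deiodinase, which makes active thyroid hormone inside the cell. Ucp1 encodes the uncoupling protein, Cidea a lipid droplet protein that is abundant in brown fat cells, and Elovl3 a fatty acid elongase. Cox7a1 and Cox8b encode tissue-restricted subunits of cytochrome c oxidase, the last enzyme of the respiratory chain, and Otop1 encodes a proton channel. In the GRCm39 coordinates of the count tables, Ucp1 spans chr8:84016981-84025081 on the plus strand, with 1636 exonic bases. No other annotated gene overlaps the exons of Ucp1, Cidea, Ppargc1a, Cox7a1, Cox8b or Otop1. A gene on the opposite strand covers 6.1% of the exonic bases of Ebf2, 1.6% of those of Dio2, 1.2% of those of Prdm16 and 0.5% of those of Elovl3, and reads were counted without regard to strand.

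Promoter sequence was available for 7 of the 10 genes (Ucp1, Dio2, Ppargc1a, Prdm16, Cox7a1, Cox8b and Otop1) as 250 bases before the RefSeq start in build GRCm38.p6. Below are 4 of them, 5′ to 3′ on the strand of the gene. The first 3 hold a cyclic AMP response half-site, which the adrenergic pathway described above makes relevant, and Otop1 is shown because its level tracked that of Ucp1 most closely among the 9 other genes. Capitals mark matches on either strand. They are TGACG for the cyclic AMP response half-site. For the half-site of nuclear receptors they are AGGTCA, and TATAAA stands for the TATA box. TCAAGGTCA, the element of estrogen-related receptors, which contains the nuclear receptor half-site, was searched too and matched none of the 7.
Ucp1, chr8:83290098-83290347, plus strand: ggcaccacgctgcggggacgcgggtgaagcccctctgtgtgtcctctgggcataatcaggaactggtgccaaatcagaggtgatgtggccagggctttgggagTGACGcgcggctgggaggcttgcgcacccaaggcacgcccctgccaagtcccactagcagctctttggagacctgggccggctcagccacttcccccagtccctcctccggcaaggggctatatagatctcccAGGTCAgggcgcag
Dio2, chr12:90739039-90739288, minus strand: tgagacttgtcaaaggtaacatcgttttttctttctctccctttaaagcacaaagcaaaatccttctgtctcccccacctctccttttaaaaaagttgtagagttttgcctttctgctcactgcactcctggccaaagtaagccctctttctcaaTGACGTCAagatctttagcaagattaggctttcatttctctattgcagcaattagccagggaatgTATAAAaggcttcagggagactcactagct
Ppargc1a, chr5:51567726-51567975, minus strand: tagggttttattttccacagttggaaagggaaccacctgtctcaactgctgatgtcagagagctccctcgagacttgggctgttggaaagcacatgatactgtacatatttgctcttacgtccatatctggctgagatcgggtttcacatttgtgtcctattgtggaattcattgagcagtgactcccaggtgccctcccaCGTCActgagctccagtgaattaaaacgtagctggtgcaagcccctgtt
Otop1, chr5:38277154-38277403, plus strand: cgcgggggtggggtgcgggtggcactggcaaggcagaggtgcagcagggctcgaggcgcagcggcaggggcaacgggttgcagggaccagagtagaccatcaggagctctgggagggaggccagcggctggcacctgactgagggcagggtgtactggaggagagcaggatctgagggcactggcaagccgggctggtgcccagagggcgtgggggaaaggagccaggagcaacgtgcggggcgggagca
The cyclic AMP response half-site began 147 bases before the start in Ucp1 and 49 bases before it in Ppargc1a. In Dio2 it matched on both strands at 95 and 92 bases, which overlap to spell 1 palindromic site. The half-site was present in 17.8% of 32851 promoter windows of the same length, so its presence in 3 of 7 describes these letters only. Ucp1 also held the nuclear receptor half-site at 14 bases (14.0% of all windows), and Dio2 the TATA box at 30 bases (12.4% of all windows). Prdm16, Cox7a1, Cox8b and Otop1 held no match to any of the 4 motifs in these 250 bases.

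The libraries held 53047057 to 93314761 reads in genes. CPM are read counts scaled to the library size as adjusted by the TMM method of edgeR. White fat markers (10 genes such as Adipoq, Plin1 and Fabp4) summed to 17390 to 62660 CPM in every library, so all libraries held fat cell transcripts. This sum does not tell white from brown fat, and whether brown fat was taken along was not tested. Several libraries also held transcripts of other organs. Skeletal muscle markers summed to over 1000 CPM in 6 libraries, namely 39870 CPM in high-fat tea replicate 1, 9855 in high-fat tea 3, 5125 in high-fat water 3, 35160 in high-fat water 5, 5597 in chow tea 1 and 5252 CPM in chow water 2, against 40.1 to 452 CPM in the other 14. Pancreatic enzyme genes reached 556300 CPM in chow water 1, kidney genes 24680 CPM in high-fat tea 4, and adrenal genes 13290 and male tract genes 31320 CPM in high-fat water 4. The pancreatic genes were 32.2% of the reads of chow water 1, so the adjusted size puts CPM of this library above the share of reads. Results below are given with and without these libraries where they bear on them.

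Ucp1, the uncoupling protein that makes the heat, varied more from mouse to mouse than nearly all genes in these samples. Ucp1 measured 344, 429, 32.7, 37.0 and 33.1 CPM in the high-fat tea mice, in the order of replicates 1 to 5. It measured 0.893, 674, 869, 193 and 151 CPM in high-fat water, 260, 508, 4.05, 288 and 1.22 CPM in chow tea, and 21.7, 454, 1.10, 510 and 0.590 CPM in chow water. Each group therefore held a mouse above 400 CPM, and the high-fat water, chow tea and chow water groups also held mice near 1 CPM. The highest library was 1472-fold above the lowest, 56776 counts in high-fat water 3 and 47 counts in chow water 5. All 4 groups overlapped. The standard deviation of the log2 level over the 20 libraries was 3.56 for Ucp1, larger than in 99.7% of the 21306 genes tested, where the median was 0.494. Differences between group means made up 7.3% of the variance of Ucp1, against a median of 24.5% over all tested genes. In bulk tissue, fewer thermogenic cells and less RNA per cell cannot be told apart.

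**Figure D1:**
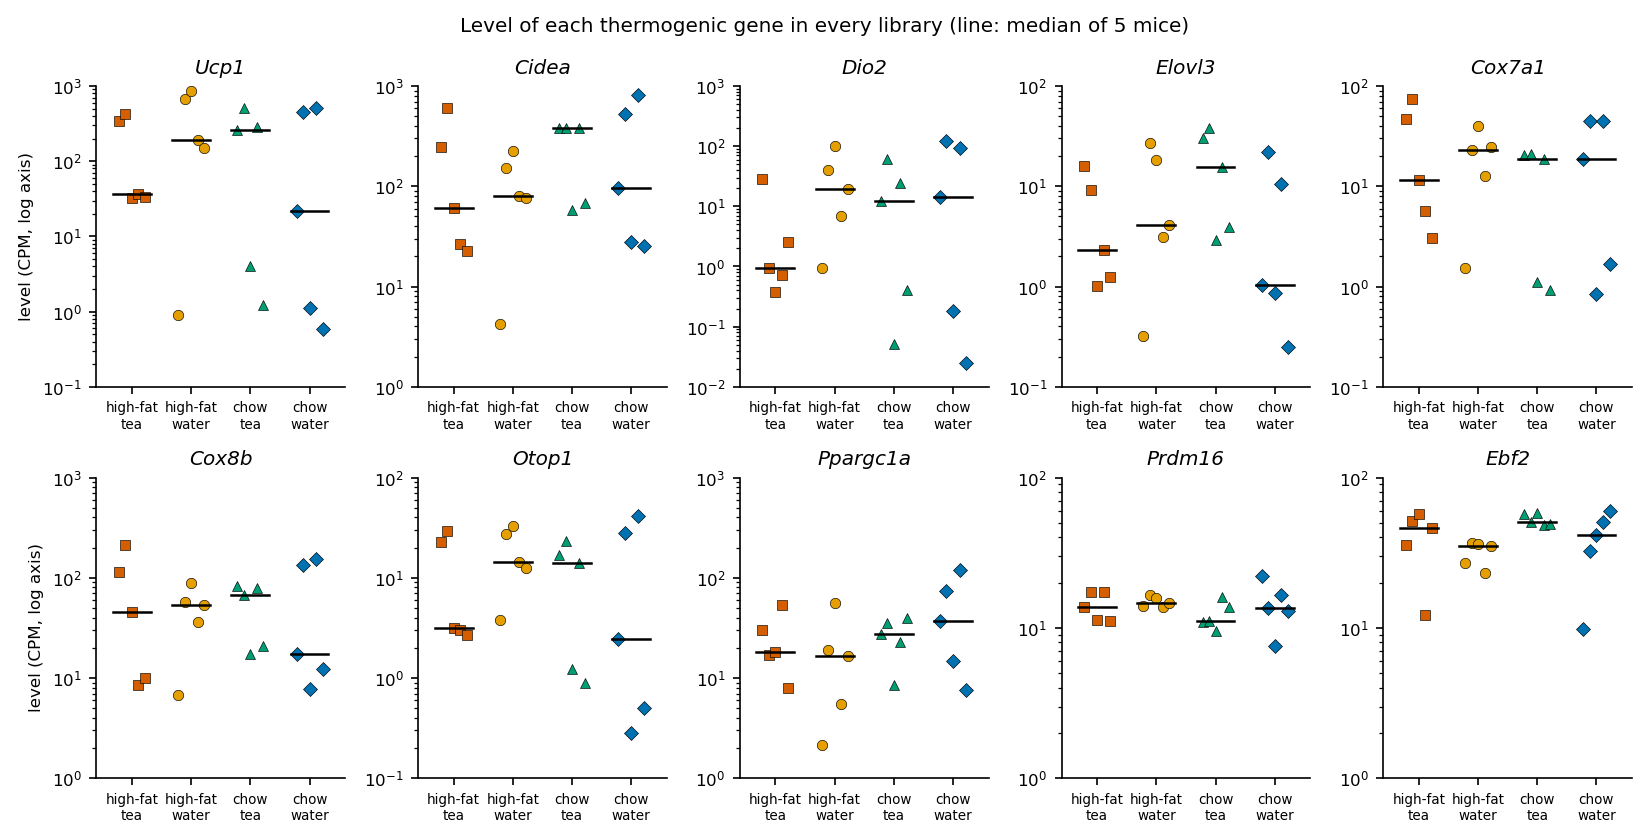
CPM (log axis) of each of the 10 genes in the 20 libraries, 1 panel per gene, with the groups in the order high-fat tea, high-fat water, chow tea and chow water. Points are mice and lines are medians of 5 mice; Ucp1 runs between 0.590 and 869 CPM, while Prdm16 stays between 7.60 and 22.1 CPM.

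The lineage factors varied least. Prdm16 lay between 7.60 CPM (chow water 3) and 22.1 CPM (chow water 1). Chow water 1 is the library with pancreas transcripts, where the adjusted size puts CPM above the share of reads. That value enters the spread of the chow water group. Group means of Prdm16 were 14.2 ± 3.07 CPM in high-fat tea, 14.9 ± 1.24 in high-fat water, 12.3 ± 2.61 in chow tea and 14.6 ± 5.31 CPM in chow water (SD, n = 5 each). Its standard deviation of 0.348 on the log2 scale was larger than in only 31.1% of tested genes. Ebf2 averaged 40.5 ± 17.7 CPM in high-fat tea, 31.7 ± 6.16 in high-fat water, 52.8 ± 4.92 in chow tea and 38.8 ± 19.2 CPM in chow water (SD, n = 5 each), with the lowest values, 9.80 and 12.2 CPM, in chow water 1 and high-fat tea 4, the libraries with pancreas and kidney transcripts. Its log2 standard deviation was 0.712. Ppargc1a stood between the lineage factors and the effectors. It measured 30.0, 16.9, 18.0, 53.2 and 8.04 CPM in high-fat tea, 2.13, 19.0, 56.1, 5.50 and 16.6 CPM in high-fat water, 27.8, 35.1, 8.61, 22.6 and 40.0 CPM in chow tea, and 37.3, 73.7, 14.9, 118 and 7.63 CPM in chow water. The groups overlapped, and the highest library was 55.5-fold above the lowest.

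Dio2, the deiodinase, also varied widely, with a standard deviation of 3.33 on the log2 scale, against 3.56 for Ucp1. It measured 28.5, 0.946, 0.376, 0.726 and 2.54 CPM in high-fat tea mice and 0.930, 40.3, 100, 6.90 and 19.4 CPM in high-fat water mice. In chow-fed mice it measured 12.4, 60.7, 0.0515, 24.1 and 0.403 CPM with tea and 14.5, 121, 0.179, 94.4 and 0.0251 CPM with water. In high-fat tea, 1 of the 5 mice exceeded 3 CPM, against 4 of 5 in high-fat water, 3 of 5 in chow tea and 3 of 5 in chow water. The level of 3 CPM was not set in advance, and high-fat tea 5 lay just below it at 2.54 CPM, so these counts only describe the values. The lowest library held 2 counts of Dio2, so its range is not given as a fold. High-fat tea 2 combined 429 CPM of Ucp1 with 0.946 CPM of Dio2.

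Among the effectors, Cidea measured 247, 608, 60.5, 26.8 and 22.7 CPM in high-fat tea, 4.27, 152, 226, 79.8 and 75.7 CPM in high-fat water, 385, 382, 57.4, 382 and 68.3 CPM in chow tea, and 95.1, 532, 28.0, 804 and 25.4 CPM in chow water. Chow water 5, the library lowest in Ucp1, still held 25.4 CPM of Cidea, and no library but high-fat water 1 fell below 22 CPM. Elovl3 measured 15.9, 9.10, 1.02, 2.30 and 1.23 CPM in high-fat tea, 0.318, 26.9, 18.4, 3.1 and 4.09 CPM in high-fat water, 30.5, 37.8, 2.90, 15.7 and 3.95 CPM in chow tea, and 1.04, 22.0, 0.871, 10.5 and 0.251 CPM in chow water. Otop1 measured 23.0, 29.0, 3.15, 3.0 and 2.70 CPM in high-fat tea, 3.81, 27.3, 33.0, 14.5 and 12.4 CPM in high-fat water, 16.7, 23.3, 1.22, 14.0 and 0.901 CPM in chow tea, and 2.44, 28.2, 0.282, 41.4 and 0.502 CPM in chow water. The same mice were high in these genes again, such as high-fat water 2 and 3, chow tea 2 and chow water 2 and 4, and the groups overlapped for each. Cox7a1 ranged from 0.846 CPM in chow water 3 to 73.8 CPM in high-fat tea 2, and Cox8b from 6.82 CPM in high-fat water 1 to 212 CPM in high-fat tea 2. For 7 of the 10 genes the range within every group was wider than the range of the 4 group medians, and for Prdm16, Elovl3 and Ebf2 this held in 3 of the 4 groups. Single values spread more than medians, and the share over all tested genes was not computed. These counts therefore describe the values and show no trait of the 10 genes.

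Levels between genes were compared per length, as FPKM (read counts scaled to the adjusted library size and exonic length), computed here from the deposited counts. By the median over all 20 libraries the order was Cox8b (138 FPKM), Ucp1 (105), Cidea (78.5), Cox7a1 (34.9), Ebf2 (6.29), Otop1 (3.85), Ppargc1a (3.16), Elovl3 (2.04), Dio2 (1.51) and Prdm16 (1.48 FPKM). The oxidase subunits, Ucp1 and Cidea thus took the first 4 places and the regulators stood among the other 6 genes, but neighbours such as Cox8b and Ucp1, or Otop1 and Ppargc1a, differed by less than their spread between mice. In 1 enzyme complex, Cox7a1 competes with its widely expressed relative Cox7a2 for the same place, and Cox8b with Cox8a. Cox7a1 and Cox8b are also the forms of skeletal and heart muscle. The thermogenic form made up 1.57% to 52.0% of the Cox7a pair (median 23.4%) and 4.28% to 52.7% of the Cox8 pair (median 24.7%) on the FPKM scale.

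**Figure D2:**
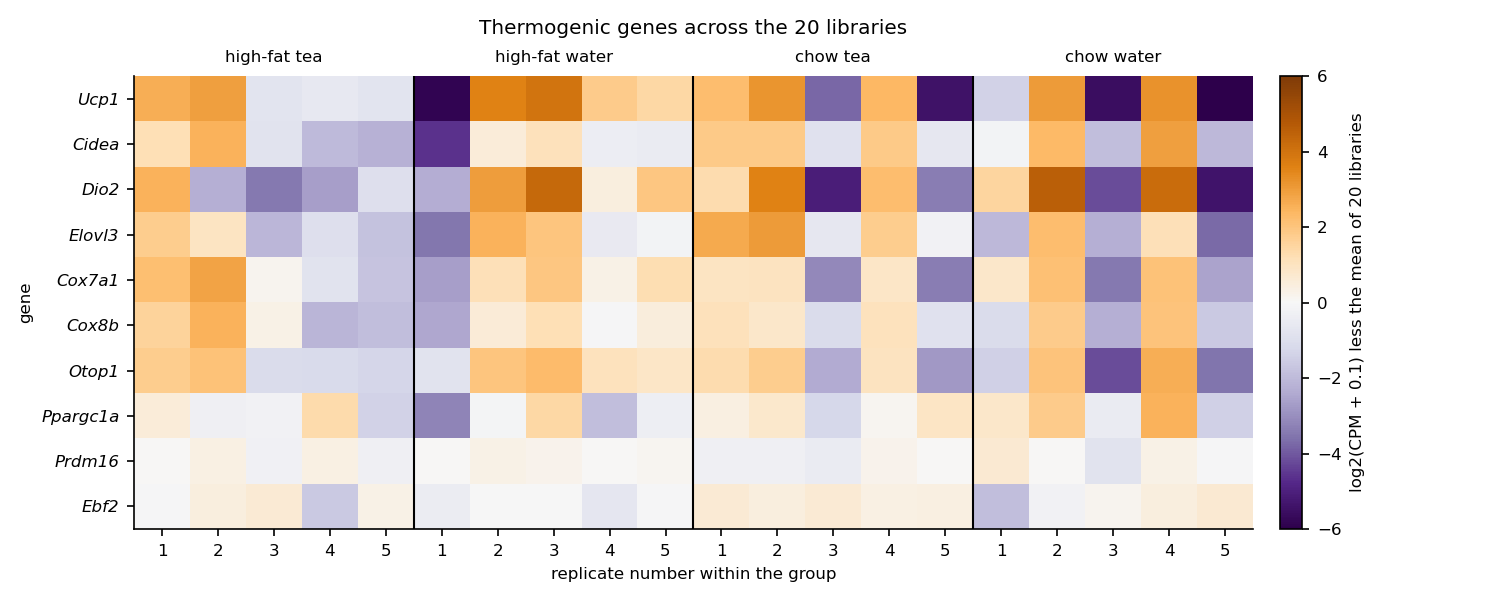
Level of the 10 genes in each library as the difference of log2(CPM + 0.1) from the gene's mean over 20 libraries, with libraries grouped as high-fat tea, high-fat water, chow tea and chow water. Ucp1, Otop1, Cox7a1, Elovl3, Dio2, Cox8b and Cidea change colour together in most mice, while Prdm16 and Ebf2 stay near their means in most libraries.

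The effect of high-fat feeding in water-drinking mice was tested with the edgeR quasi-likelihood test, with p-values adjusted over all 21306 genes. None of the 10 genes passed an adjusted p of 0.05 in high-fat water against chow water, where 15.2% of all tested genes did. The count at an unadjusted p below 0.05 was also 0 of 10, against 30.8% of all tested genes. No gene of the 10 had groups that do not overlap, a pattern seen in 12.9% of tested genes. The lowest p was that of Ppargc1a, which averaged 19.9 ± 21.5 CPM in high-fat water and 50.3 ± 45.8 CPM in chow water (SD, n = 5 each). Its log2 fold change was −1.34 ± 0.78 (SE), with a 95% interval of −2.99 to 0.30 and an adjusted p of 0.256 (edgeR). Ucp1 averaged 378 ± 373 CPM in high-fat water and 198 ± 261 CPM in chow water (SD, n = 5 each), a log2 fold change of 0.93 with an interval of −2.50 to 4.37. The interval of Cidea was −3.78 to 0.85 around −1.47, and that of Prdm16, the narrowest, was −0.43 to 0.50 around 0.04. The median log2 fold change of the 10 genes was −0.21, against −0.002 over all tested genes. DESeq2 and limma voom also called 0 of the 10, with 0 at an unadjusted p below 0.05 in either.

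Drinking tea on the high-fat diet, set against water on the same diet, gave the same count, 0 of 10 called by edgeR, where 4.36% of all tested genes were called and 5.55% had groups that do not overlap. By edgeR 0 of 10 had an unadjusted p below 0.05, against 23.6% of all tested genes, and 0 had groups that do not overlap; DESeq2 and limma voom called 0 as well. Dio2 had the lowest p. It averaged 6.61 ± 12.3 CPM in high-fat tea and 33.5 ± 40.2 CPM in high-fat water (SD, n = 5 each), with a log2 fold change of −2.34 ± 1.77 (SE), an interval of −6.06 to 1.37 and an adjusted p of 0.456 (edgeR). Ucp1 averaged 175 ± 195 CPM in high-fat tea and 378 ± 373 CPM in high-fat water (SD, n = 5 each), a log2 fold change of −1.11 with an interval of −4.55 to 2.34. For Cidea the log2 fold change was 0.84, with an interval of −1.44 to 3.12. Of the 10 fold changes 5 were positive and 5 negative, with a median of 0.14, against 0.02 over all tested genes. The intervals of Ucp1, Cidea, Dio2, Elovl3, Cox7a1, Cox8b and Otop1 each held a 4-fold change in at least 1 direction, so the data do not show that the groups were alike.

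In chow-fed mice, tea against water also gave 0 of 10 calls by edgeR, where 0.0235% of all tested genes were called. The count at an unadjusted p below 0.05 was 0 of 10, against 12.4% of all tested genes, and 0 had groups that do not overlap, against 2.56%. DESeq2 and limma voom called 0 of the 10 too. Ebf2 had the lowest p here, averaging 52.8 ± 4.92 CPM in chow tea and 38.8 ± 19.2 CPM in chow water (SD, n = 5 each), with a log2 fold change of 0.44 and an adjusted p of 0.684 (edgeR). Elovl3 averaged 18.2 ± 15.7 CPM in chow tea and 6.93 ± 9.42 CPM in chow water (SD, n = 5 each), a log2 fold change of 1.39 with an interval of −1.11 to 3.89. Ucp1 averaged 213 ± 214 CPM in chow tea and 198 ± 261 CPM in chow water, a log2 fold change of 0.10 with an interval of −3.30 to 3.51.

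High-fat feeding in tea-drinking mice, set against chow tea, gave 0 of 10 calls by edgeR, where 0.178% of all tested genes were called, and DESeq2 and limma voom called 0. The count at an unadjusted p below 0.05 was 0 of 10, against 16.3% of all tested genes, and 0 had groups that do not overlap, against 2.77%. Elovl3 had the lowest p, averaging 5.91 ± 6.50 CPM in high-fat tea and 18.2 ± 15.7 CPM in chow tea (SD, n = 5 each), with a log2 fold change of −1.62 and an interval of −4.14 to 0.90 (adjusted p = 0.526, edgeR). The interaction of diet and tea, which asks whether the tea effect differed between the diets, was also called for 0 of 10 genes by edgeR, DESeq2 and limma voom, where 0.0657% of all tested genes were called by edgeR, and 0 had an unadjusted p below 0.05, against 15% of all tested genes. Elovl3 again had the lowest p, with an interaction of −2.23 ± 1.67 (SE) on the log2 scale and an adjusted p of 0.577 (edgeR). The comparisons share groups, so these 5 results are not independent of each other.

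**Figure D3:**
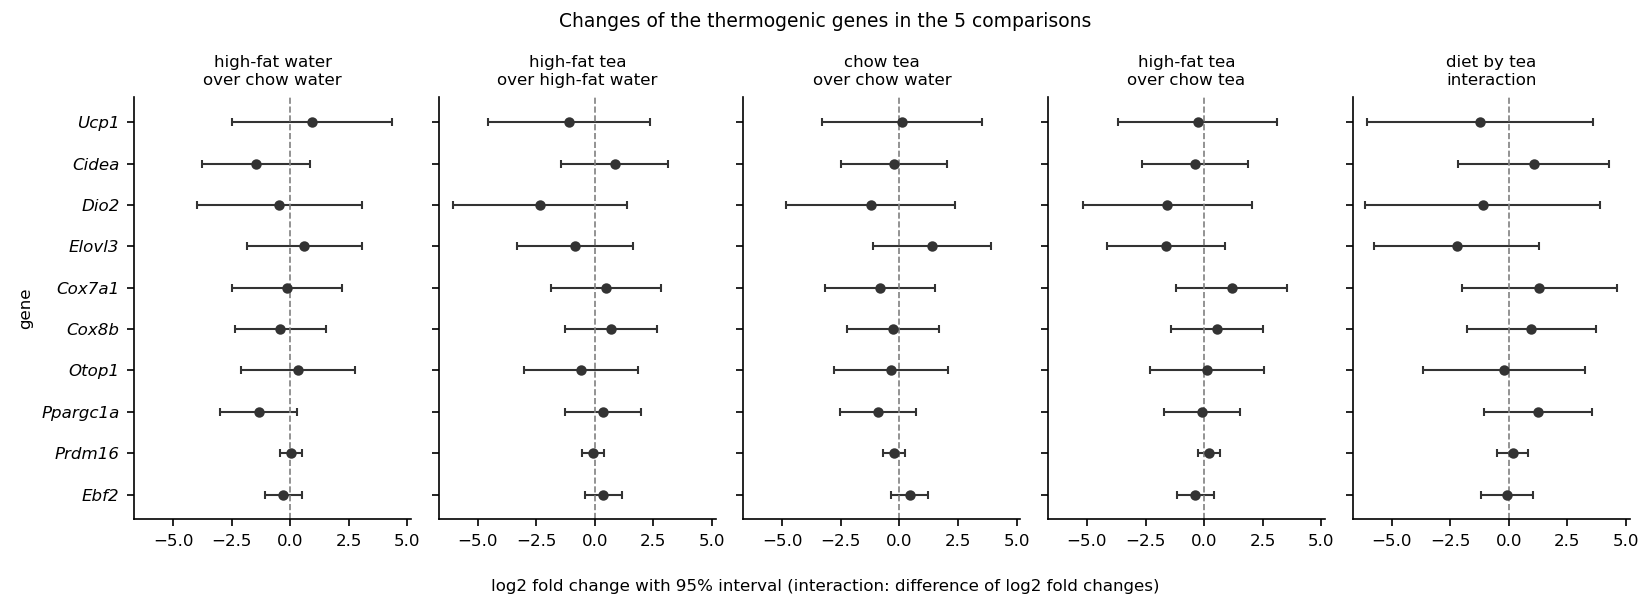
Log2 fold changes of the 10 genes with their 95% intervals in the 5 comparisons, with high-fat water against chow water first and the interaction last. Every interval crosses 0; those of Prdm16 and Ebf2 are narrow and those of Ucp1 and Dio2 span several log2 units.

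The genes varied together from mouse to mouse. Over the 20 libraries, log2 levels were set against that of Ucp1 as Pearson r and Spearman rho, each with a two-sided permutation test (100000 resamples, Benjamini-Hochberg over 9 pairs). Otop1 had r = 0.935 (rho 0.925), Cox7a1 0.924 (rho 0.848), Elovl3 0.838 (rho 0.865), Dio2 0.836 (rho 0.866), Cox8b 0.836 (rho 0.824) and Cidea 0.803 (rho 0.800). The adjusted permutation p of r was 3e-05 for Cox8b and 1.8e-05, from the smallest p that the resamples can give, for the other 5. Ppargc1a had a lower r of 0.519 (rho 0.568, adjusted permutation p = 0.0246). The lineage factors did not pass, with r = 0.379 for Prdm16 (adjusted permutation p = 0.112) and −0.001 for Ebf2 (adjusted permutation p = 0.997). The 21 pairs among Ucp1 and the 6 genes that followed it had r of 0.675 to 0.935.

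The correlation did not rest on a few libraries for these 6 genes. Without the 2 libraries farthest from the Ucp1 median, chow water 5 and high-fat water 1, their r ran from 0.735 for Cidea to 0.979 for Otop1. Ppargc1a fell to r = 0.29 (adjusted permutation p = 0.275), so that its relation to Ucp1 was lost without those 2 libraries, as it was without the 6 muscle libraries described below. On deviations from the group means, r was 0.86 to 0.943 for the 6 genes and 0.696 for Ppargc1a. Sorted by level, the widest gap in Ucp1 lay between 4.05 and 21.7 CPM and was 2.39 of a range of 10.3 log2 units, with 5 libraries below it and 15 above. Among the 15 above it, a subset chosen after the values were seen, r was 0.982 for Otop1, 0.904 for Elovl3, 0.813 for Cox8b, 0.784 for Cidea, 0.735 for Cox7a1 and 0.682 for Dio2, with adjusted permutation p of 0.00859 at most. In the same 15 libraries r was 0.284 for Ppargc1a, −0.031 for Prdm16 and 0.489 for Ebf2, none of which passed.

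**Figure D4:**
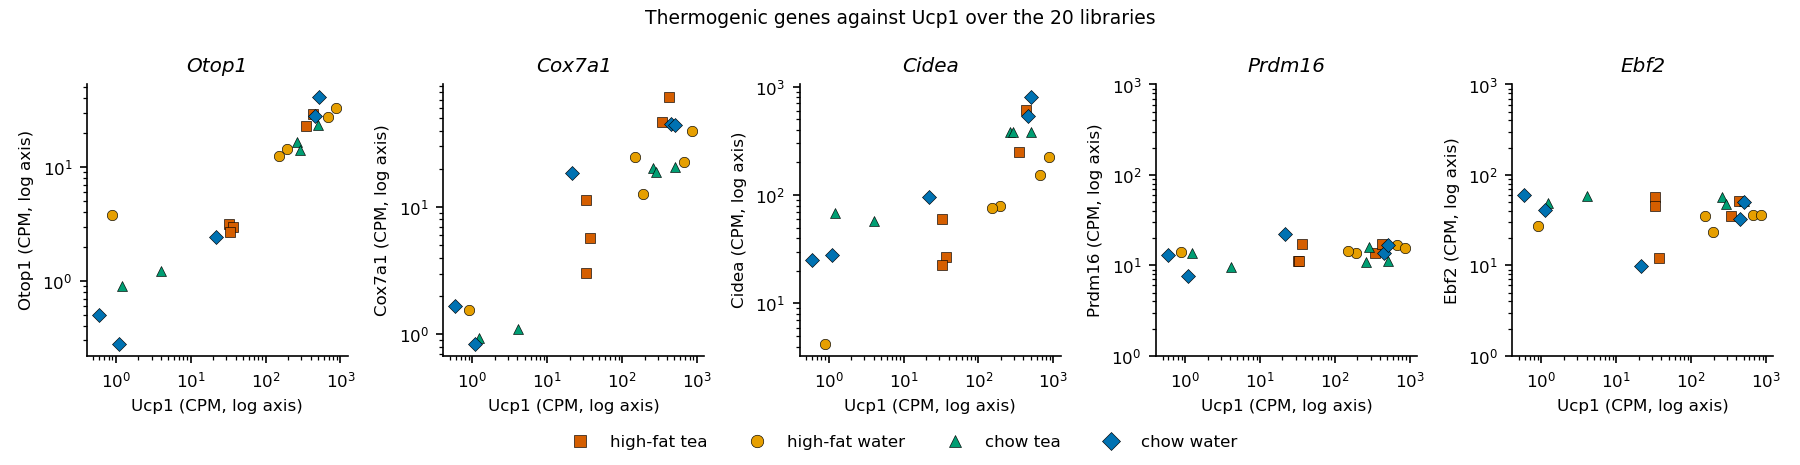
CPM of Otop1, Cox7a1, Cidea, Prdm16 and Ebf2 (vertical, log axis) against CPM of Ucp1 (horizontal, log axis), 1 panel per gene and 1 point per library, with colour and shape by group. Otop1 and Cox7a1 are high where Ucp1 is high (r = 0.935 and 0.924), without a clear order among the 5 libraries with the least Ucp1, and Ebf2 shows no slope (r = −0.001).

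Ranked by r with Ucp1 among 21305 other tested genes, Otop1 stood at place 2, Cox7a1 at 3, Elovl3 at 8, Cox8b at 9, Dio2 at 10 and Cidea at 14, while Ppargc1a stood at 383, Prdm16 at 1355 and Ebf2 at 10163. The 5 genes outside the set, with log2(CPM + 0.1) averaging 1 or more, with the most similar pattern over the 20 libraries were Fabp3 (r = 0.939), Sucla2 (0.839), Acot11 (0.816), Idh3a (0.782) and Acaa2 (0.778). Fabp3, a fatty acid carrier, measured between 0.309 and 150 CPM, with means of 79.3 ± 61.7 CPM in high-fat tea, 76.1 ± 56.6 in high-fat water, 26.1 ± 25.5 in chow tea and 19.6 ± 25.9 CPM in chow water (SD, n = 5 each). In a list of 21 genes of brown fat fuel use and mitochondria, 10 had r above 0.5 (47.6%), against 2.18% of all tested genes, and the median r was 0.488 against −0.013. The brown and beige markers had 4 of 24 above 0.5 (median r 0.121), the thermogenic regulators 2 of 23 (median r 0.07), the adrenergic genes 2 of 14 (median r 0.127) and the white fat markers 0 of 10 (median r −0.072).

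Muscle shares many genes of fat burning, so muscle transcripts were set beside these correlations. The median r with Ucp1 over 17 tested skeletal muscle markers was 0.369, with 1 above 0.5. The 6 libraries with over 1000 CPM of muscle markers held 32.7 to 869 CPM of Ucp1, and the 5 libraries with the least Ucp1 were all among the other 14. Without those 6 libraries, r with Ucp1 in the remaining 14 was 0.921 for Otop1, 0.913 for Cox7a1, 0.831 for Elovl3, 0.815 for Dio2, 0.804 for Cox8b and 0.788 for Cidea, with adjusted permutation p of 0.00154 at most. Ppargc1a had r = 0.429 there (adjusted permutation p = 0.138). Without the 3 libraries with pancreas, kidney, adrenal or male tract transcripts, Ppargc1a had a higher r of 0.64 (adjusted permutation p = 0.0054). Prdm16 reached r = 0.511 there (adjusted permutation p = 0.0393), and without chow water 1 alone 0.479 (adjusted permutation p = 0.0412).

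**Figure D5:**
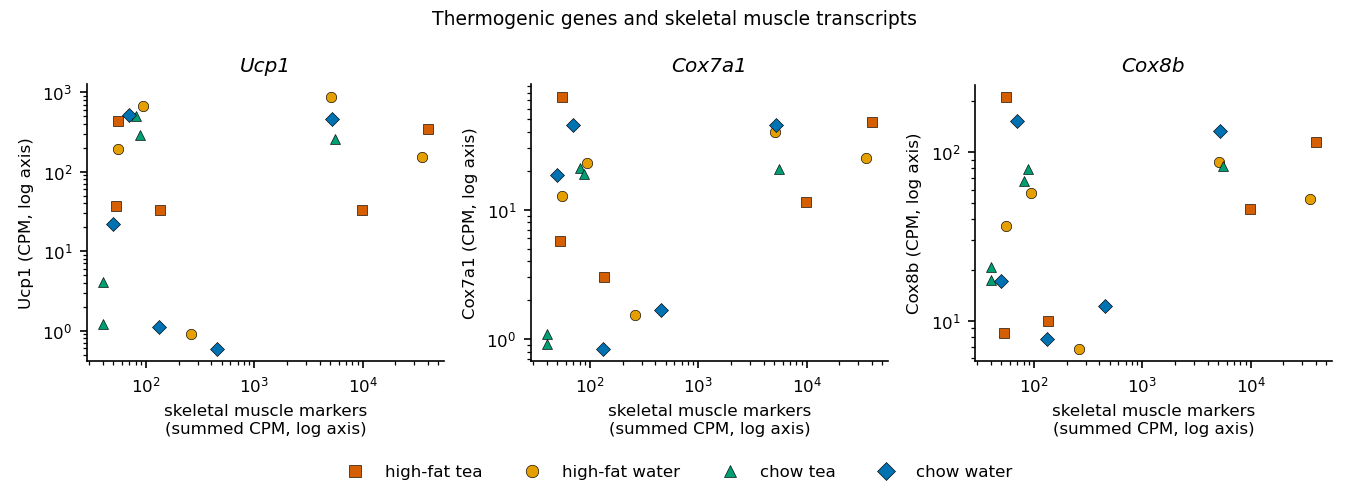
CPM of Ucp1, Cox7a1 and Cox8b (vertical, log axis) against the summed CPM of the skeletal muscle markers (horizontal, log axis), 1 panel per gene and 1 point per library, with colour and shape by group. The 6 libraries above 1000 CPM of muscle markers hold 32.7 to 869 CPM of Ucp1, and the 5 libraries with the least Ucp1 are among the 14 with 40.1 to 452 CPM of muscle markers.

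Although the genes moved together, their balance was not the same in all mice. Ratios of Otop1, Cidea and the others were compared after their values had been seen, as 64 exact permutation tests over 16 ratios, and none passed after Benjamini-Hochberg adjustment. The smallest p that 5 against 5 mice allow is 0.007937 (two-sided), and it was reached by the ratio of Otop1 to Cidea. Over 64 tests, adjustment can be passed at that p only if many tests reach it together. The lack of a pass was thus largely set by the design and does not show that the ratios were alike. Otop1 was 0.894, 0.180, 0.147, 0.183 and 0.165 of Cidea, as CPM with 0.1 added to each, in high-fat water mice and 0.0267, 0.0532, 0.0136, 0.0515 and 0.0236 of it in chow water mice. The groups did not overlap, and the mean log2 ratio was 2.98 higher in high-fat water (exact permutation p = 0.007937, adjusted p = 0.127). In high-fat tea mice Otop1 was 0.0935, 0.0478, 0.0537, 0.115 and 0.123 of Cidea, below every high-fat water mouse, a difference of −1.54 in the log2 ratio (exact permutation p = 0.007937, adjusted p = 0.127). Cox7a1 to Cidea and Cox8b to Cidea were higher in high-fat tea than in chow tea by 2.30 and 0.91 on the log2 scale, again without overlap and at the same exact permutation p and adjusted p. Of the 64 tests, only those named here reached that p. All of them share Cidea as the denominator, so they are not separate results, and no ratio to Ucp1 reached it. What part Cidea alone has in these differences was not tested.

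The wider thermogenic programme was read through lists of other genes, chosen with earlier results of these data known. Of 23 transcriptional regulators of thermogenesis, 0 were higher and 4 lower in high-fat water than in chow water (17.4%, against 15.2% of all tested genes), and 2 were higher and 0 lower in high-fat tea than in high-fat water (8.7% against 4.36%). Irf4 is a transcription factor that partners PGC-1α in brown fat. It ranged from 8.66 to 59.7 CPM in high-fat water, with a median of 24.9, and from 243 to 1109 CPM in chow water, with a median of 488, so that the groups did not overlap. Its log2 fold change was −4.33 (adjusted p = 0.00267, edgeR), and the call held when any 1 library was left out and without the 6 muscle libraries (adjusted p = 0.0164, edgeR). In high-fat tea Irf4 ranged from 36.3 to 491 CPM, with a median of 254, against the 8.66 to 59.7 CPM of high-fat water, a log2 fold change of 2.91 (adjusted p = 0.0384, edgeR). That call was lost on leaving out any of high-fat water 1, 2, 3 or 4 or high-fat tea 1, 2 or 3, and without the 6 muscle libraries (adjusted p = 0.220, edgeR). Without those 6, 0 of all tested genes were called for tea on the high-fat diet. The call passed with all 20 libraries kept and the summed muscle marker level as a covariate (adjusted p = 0.0125, edgeR).

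White fat cell markers also differed between these groups. Their sum was 17390 to 54120 CPM in high-fat tea (median 38740), 19150 to 33250 CPM in high-fat water (median 32070) and 18420 to 56500 CPM in chow water (median 50320), where 18420 CPM belongs to chow water 1 and the other 4 mice held 43320 CPM or more. Of the 10 markers, 1 was higher (Lep, the hormone leptin) and 2 lower (Cfd and Pck1) in high-fat water than in chow water (30%, against 15.2% of all tested genes). In high-fat tea against high-fat water 2 were higher and 0 lower (20% against 4.36%). Cfd, the secreted protease adipsin, averaged 8602 ± 6639 CPM in high-fat tea, 2294 ± 784 in high-fat water and 11680 ± 4121 CPM in chow water (SD, n = 5 each). It was lower in high-fat water than in chow water by edgeR (adjusted p = 0.00567) and higher in high-fat tea than in high-fat water (adjusted p = 0.0376), as was Pck1, an enzyme of glycerol synthesis (adjusted p = 0.00317 and 0.0290, edgeR). The calls for tea were lost in 8 of 10 fits that each left out 1 library for Cfd, all but those without high-fat tea 4 or 5, in 5 of 10 for Pck1 (high-fat water 1, 2 or 4 or high-fat tea 3 or 4), and for both without the 6 muscle libraries (adjusted p = 0.282 and 0.226, edgeR). For diet, the calls of Pck1 and Lep were also lost without those 6 (adjusted p = 0.0599 and 0.0614, edgeR), and that of Cfd held (adjusted p = 0.0434, edgeR). With the muscle covariate and all 20 libraries, the tea calls of Cfd and Pck1 passed (adjusted p = 0.0326 and 0.0347, edgeR). The diet calls of Cfd, Pck1 and Lep passed there too (adjusted p = 0.00254, 0.00384 and 0.0129, edgeR). Adipoq, Plin1 and Fabp4 were called in neither comparison, with log2 fold changes of 0.11, 0.36 and 0.02 in high-fat water against chow water. What part these differences have in those of the regulators, adrenergic and fuel genes was not tested.

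Klf15, a regulator of fasting metabolism, averaged 39.5 ± 18.1 CPM in high-fat water and 111 ± 37.4 CPM in chow water (log2 fold change −1.49, adjusted p = 0.00694, edgeR; SD, n = 5 each). Thrb, the thyroid hormone receptor β that binds the product of Dio2's enzyme, averaged 24.6 ± 1.05 CPM in high-fat water and 39.4 ± 6.50 CPM in chow water (log2 fold change −0.68, adjusted p = 0.00233, edgeR; SD, n = 5 each). In high-fat tea Thrb averaged 37.6 ± 6.77 CPM, against the 24.6 CPM of high-fat water, a log2 fold change of 0.61 (adjusted p = 0.0142, edgeR). These 3 calls held when any 1 library was left out, and without the 6 muscle libraries that of Klf15 held (adjusted p = 0.0300, edgeR) while those of Thrb did not (adjusted p = 0.0513 and 0.191, edgeR). With the muscle covariate and all 20 libraries, Klf15 passed (adjusted p = 0.00279, edgeR), as did Thrb for diet and for tea (adjusted p = 0.0025 and 0.0152, edgeR). Ppargc1b, the close relative of Ppargc1a, was lower in high-fat water (7.67 ± 3.52 CPM) than in chow water (21.5 ± 12.4 CPM; SD, n = 5 each), with a log2 fold change of −1.49 (adjusted p = 0.0196, edgeR). That call was lost without high-fat water 1, without chow water 4 and without the 6 muscle libraries (adjusted p = 0.114, edgeR), and passed with the muscle covariate (adjusted p = 0.0257, edgeR). Ppargc1b was the only one of 21 tested relatives of the 10 genes to be called in this comparison (4.76%, against 15.2% of all tested genes). For tea on the high-fat diet 0 relatives were called by edgeR, which called 4.36% of all tested genes. DESeq2 called 4 relatives there, and 2216 of all genes against 928 by edgeR.

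Of 14 genes of adrenergic input, 2 were lower and 0 higher in high-fat water than in chow water (14.3%, against 15.2% of all tested genes), and 0 were higher and 1 lower in high-fat tea than in high-fat water (7.14% against 4.36%). Pde4d, a cyclic AMP phosphodiesterase, averaged 30.0 ± 15.9 CPM in high-fat water and 105 ± 56.9 CPM in chow water (log2 fold change −1.81, adjusted p = 0.0196, edgeR; SD, n = 5 each), a call that was lost without high-fat water 1 and without chow water 4. Pde3b, the phosphodiesterase through which insulin restrains lipolysis, averaged 265 ± 67.4 CPM in high-fat water and 598 ± 181 CPM in chow water (log2 fold change −1.17, adjusted p = 0.0209, edgeR; SD, n = 5 each), and its call was lost without high-fat water 1 and without the 6 muscle libraries (adjusted p = 0.105, edgeR). Gnas, which encodes the stimulatory G protein subunit, averaged 10.5 ± 3.92 CPM in high-fat tea and 24.0 ± 7.90 CPM in high-fat water (log2 fold change −1.20, adjusted p = 0.0389, edgeR; SD, n = 5 each). Its locus holds overlapping and antisense transcripts, so its counts are uncertain, and the call was lost on leaving out any of high-fat water 1, 2, 3 or 4 or high-fat tea 1, 3 or 4, and without the 6 muscle libraries (adjusted p = 0.213, edgeR). With the muscle covariate and all 20 libraries, the calls of Pde3b and Gnas passed (adjusted p = 0.0119 and 0.0436, edgeR). Adrb3, the main β-adrenergic receptor of fat cells, was called in neither comparison, with 240 ± 112 CPM in high-fat tea, 297 ± 141 in high-fat water and 260 ± 121 CPM in chow water (SD, n = 5 each). Of 21 genes of brown fat fuel use, 0 were higher and 2 lower in high-fat water than in chow water (9.52%, against 15.2% of all tested genes), and 0 were called for tea on the high-fat diet by edgeR, against 3 by DESeq2. Pdk4, a kinase that spares glucose, averaged 433 ± 145 CPM in high-fat water and 1473 ± 901 CPM in chow water (log2 fold change −1.77, adjusted p = 0.00755, edgeR; SD, n = 5 each), and Slc27a1, a fatty acid transporter, had a log2 fold change of −1.18 (adjusted p = 0.0412, edgeR). Without the 6 muscle libraries their adjusted p was 0.0599 and 0.111 (edgeR), and with 1 library left out at a time the call of Slc27a1 was kept only without chow water 1. With the muscle covariate and all 20 libraries, Pdk4 and Slc27a1 passed (adjusted p = 0.0028 and 0.016, edgeR).

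Of 14 genes that restrain browning, 1 was higher (Rbl1) and 1 lower (Trpv4) in high-fat water than in chow water (14.3%, against 15.2% of all tested genes), and 1, Trpv4, was higher in high-fat tea than in high-fat water (7.14% against 4.36%). The calls of Rbl1, and of Trpv4 for tea, were lost without high-fat water 1, and that of Trpv4 for diet in 9 of the 10 fits that each left out 1 library, all but the one without chow water 1. Of 12 genes of heat-making cycles that do not need UCP1, 1 was higher (Ryr2) and 2 lower (Atp2a2, a calcium pump, and Ckmt1, a mitochondrial creatine kinase whose call was lost without chow water 1 or high-fat water 1, 2, 4 or 5) in high-fat water than in chow water (25% against 15.2%), and 0 were called for tea on the high-fat diet by edgeR, against 3 by DESeq2. Of 24 tested genes listed as markers that separate brown, beige and white fat cells, 2 were higher and 3 lower in high-fat water than in chow water (20.8% against 15.2%). In high-fat tea against high-fat water, 2 were higher and 1 lower (12.5% against 4.36%). Mpzl2 had the lowest p among these markers, with a log2 fold change of −3.21 in high-fat water against chow water (adjusted p = 0.00284, edgeR). Ear2 went the other way there, with a log2 fold change of 2.17 (adjusted p = 0.00882, edgeR). In high-fat tea against high-fat water Ear2 was lower (−1.999, adjusted p = 0.0319, edgeR). Mpzl2 and Eva1a were higher in that comparison (2.29 and 2.21, adjusted p = 0.0354 and 0.0445, edgeR). Each of these tea calls was lost in 7 or 8 of 10 fits that left out 1 library. Without the 6 muscle libraries, the high-fat water against chow water calls that passed were Irf4 and Klf15 among the regulators, Pde4d among the adrenergic genes and Mpzl2 among the markers, with 0 in the lists of fuel use, restraint and heat cycles and 0 in any of these lists for tea on the high-fat diet. Of all 21927 genes tested there, 613 were called for diet and 0 for tea, so these zeros are not particular to the lists. With the muscle covariate and all 20 libraries, Rbl1 (adjusted p = 0.00994) and Trpv4 for tea (0.0292) passed by edgeR. Trpv4 for diet (0.0538), Ckmt1 (0.0796) and, from the marker list, Eva1a for tea (0.0757) did not. Zic1, a marker of classical brown fat that some muscle also expresses, had a median of 0.0876 CPM over the 20 libraries and its highest value, 4.89 CPM, among the libraries with muscle transcripts. Of all these lists, 0 genes were called by edgeR for tea in chow-fed mice, for diet in tea-drinking mice or for the interaction.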

How the data were processed

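RNA from white adipose tissue of 20 mice, 5 in each of 4 groups, was read as 1 count table per library. The deposited values are whole-number read counts per gene, not normalized; per the file headers, featureCounts 2.0.6 counted them on the GENCODE vM32 annotation of GRCm39, and per the submitters' processing notes fastp 0.23.2 and HISAT2 2.2.1 ran before. Those notes name mm10, but the coordinates in the tables are those of GRCm39. Read pairs mostly entered as 2 reads (68.1% to 72.2% of low counts were even), and no strand option was set. The libraries held 53047057 to 93314761 reads, a depth at which Dio2 is imprecise in its lowest libraries. No library repeated another, since the chi-square per gene was at least 47.7 in all 40 pairs within groups.

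From these counts, filterByExpr in edgeR 4.0.16 (R 4.3.3) kept 21306 genes (a minimum of 10 counts in 5 libraries of median size, and 15 in total) and removed 35499; all 10 thermogenic genes passed. The edgeR quasi-likelihood test on TMM-scaled libraries used 1 model of the 4 group means in 20 libraries without covariates. Benjamini-Hochberg adjustment ran over the whole set of tested genes, and calls were made below 0.05. CPM are on TMM sizes, errors of means are SD, and intervals are 95%. The common biological coefficient of variation was 0.593. DESeq2 1.42.0, limma voom (limma 3.58.1), RLE scaling, no filter, only the groups compared, halved counts, a muscle covariate, libraries left out and the replicate number as a block were alternatives. Correlations used log2(CPM + 0.1) with permutation tests in numpy 2.4.6. The steps were tested on simulated counts. Promoters are from RefSeq in GRCm38.p6, matched by symbol for 7 of 10 genes.

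All 10 genes are named in every comparison. From each other list, up to 3 genes with the lowest p per comparison are named, beside relatives of the 10 genes and the 5 genes most like Ucp1. Other genes of a list, Adipoq, Plin1 and Fabp4, and Adrb3, Zic1 and Fabp3's group means, were chosen after their values were seen. The 10 genes and all lists were chosen with earlier results of these data known. One gene of adrenergic input is not reported here. Replicate numbers were not used as pairs in the main test. Of 30 same-numbered pairs of libraries, 10 had a correlation of deviations above 0.1 (range −0.294 to 0.523). Differently numbered pairs were not set beside them, so whether mice of the same number share an effect was not tested.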

Additional observations from a re-analysis of the deposited data

Results flagged for a closer look

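High-fat water replicate 1 lay apart from the other mice of its group in 2 of the 10 genes. Its Ucp1 level was 0.8935 CPM, against 151 to 869 CPM in the other 4 high-fat water mice, and the gap to the nearest of them was 0.742 of the group's log2 range, above the Dixon value of 0.71 for 5 samples. Its Cidea level was 4.272 CPM, against 75.7 to 226 CPM in the others, with a gap of 0.723 of the range. It was also the lowest high-fat water mouse in Dio2, Ppargc1a, Elovl3, Cox7a1, Cox8b and Otop1. In all, 40 groups were examined, and chance marks about 1 group in 20.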

How the results depend on the processing

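In the 5 comparisons the number of thermogenic genes called stayed at 0 of 10 under every alternative run: DESeq2, limma voom, RLE scaling, no filter, only the groups compared, halved counts, the replicate block, the muscle covariate, the libraries named above left out, and each library left out. The lowest adjusted p among 1140 alternative fold changes was 0.07766. Of these, 84 changed sign, in 26 of 50 gene and comparison pairs, none of them called; the cause was not tested. With limma voom, the log2 fold change turned to 1.95 for Dio2, 0.71 for Cox7a1 and 0.14 for Cox8b in high-fat water against chow water, 0.60 for Cidea, 0.40 for Cox8b and 0.70 for Otop1 in chow tea against chow water, 0.99 for Ucp1 and −0.14 for Cox8b in high-fat tea against chow tea, −0.11 for Cidea and −0.28 for Cox8b in the interaction. With the replicate number as a block, although whether the numbers pair the mice was not tested, the log2 fold change turned to 2.74 for Dio2, 1.65 for Cox7a1 and 0.48 for Cox8b in high-fat water against chow water, −0.18 for Cidea, −1.05 for Cox7a1 and −0.0236 for Cox8b in high-fat tea against high-fat water, 0.26 for Cidea, 0.11 for Cox8b and 0.0401 for Otop1 in chow tea against chow water, 0.91 for Ucp1 and 0.0081 for Dio2 in high-fat tea against chow tea, −0.44 for Cidea, −0.30 for Cox7a1 and −0.13 for Cox8b in the interaction. Without the 6 muscle libraries, the log2 fold change turned to −0.0148 for Prdm16 in high-fat water against chow water, 0.0672 for Prdm16 in high-fat tea against high-fat water, 0.0173 for Ebf2 in the interaction. Without the 3 libraries with other-organ transcripts, the log2 fold change turned to −0.36 for Ppargc1a in high-fat tea against high-fat water, −0.19 for Ucp1 in chow tea against chow water, −0.13 for Prdm16, 0.30 for Ebf2 and 0.25 for Otop1 in the interaction. Without high-fat tea 1 and high-fat water 5, the log2 fold change turned to −0.24 for Otop1 in high-fat tea against chow tea. With 1 library left out at a time, fold changes that changed sign ran in high-fat water against chow water −1.45 to 0.28 for Dio2, −0.52 to 0.30 for Cox7a1, −0.75 to 0.18 for Cox8b, −0.12 to 0.19 for Prdm16, −0.0984 to 1.71 for Elovl3 and −0.0055 to 1.21 for Otop1, in high-fat tea against high-fat water −0.27 to 1.31 for Cidea, −0.27 to 0.87 for Cox7a1, −0.11 to 1.02 for Cox8b, −0.12 to 1.22 for Ppargc1a and −0.16 to 0.001 for Prdm16, in chow tea against chow water −0.51 to 0.83 for Ucp1, −0.52 to 0.59 for Cidea, −0.56 to 0.33 for Cox8b and −0.83 to 0.51 for Otop1, in high-fat tea against chow tea −0.93 to 0.34 for Ucp1, −0.56 to 0.14 for Ppargc1a, −0.50 to 0.57 for Otop1 and −0.26 to 0.84 for Cox8b, and in the interaction −0.30 to 0.21 for Ebf2, −1.09 to 0.25 for Otop1 and −0.0509 to 1.53 for Cidea.

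The correlation of Ppargc1a with Ucp1 no longer passed without the 2 farthest libraries (r = 0.29), without the 6 muscle libraries (0.43) or in the 15 libraries above the gap (0.28), and leaving out 1 library gave 0.40 to 0.62. It passed without the 3 other-organ libraries (0.64) and on deviations from group means (0.696). That of Prdm16 passed without the 3 other-organ libraries (0.51), was −0.0311 above the gap, and ran 0.22 to 0.48 with 1 library left out. That of Ebf2 changed sign to 0.0158 with 1 CPM added, 0.0221 on deviations from group means, 0.0061 without high-fat tea 1 and high-fat water 5, 0.0452 without the 2 farthest libraries and 0.49 above the gap, and ran −0.0756 to 0.11 with 1 library left out. The other 6 correlations passed under every alternative, with r of 0.77 to 0.98 when 1 library was left out. The 4 differences in ratio named above were rerun with 1 CPM added, without the 3 other-organ libraries, without high-fat tea 1 and high-fat water 5, and with 1 library left out. They kept their sign in these, and none passed adjustment, which the few possible p-values make hard to pass. The ratios were not rerun without the 6 muscle libraries or in the 15 libraries above the gap.

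The number of all genes called moved more. In high-fat water against chow water it was 3232, with 1890 to 3445 when 1 library was left out (1890 without high-fat water 1, 2110 without chow water 2) and 613 without the 6 muscle libraries. For tea on the high-fat diet it was 928, against 2216 by DESeq2, 408 with no filter, 21 with only the groups compared, 1602 without the 3 other-organ libraries, 412 without high-fat tea 1 and high-fat water 5, and 0 without the 6 muscle libraries, where 3378 had an unadjusted p below 0.05. Leaving out 1 library gave 212 (high-fat water 1), 312 (high-fat water 2), 513 (high-fat water 3), 332 (high-fat tea 2), 260 (high-fat tea 3) and 2017 (high-fat tea 5). For tea on chow it was 5 by edgeR and 238 by DESeq2, for diet in tea-drinking mice 38 and 843, and for the interaction 14 and 659; leaving out 1 library gave 2 to 6, 10 to 390 and 3 to 111 in these 3. With the replicate block the 5 counts were 2611, 632, 2, 28 and 14. Without the 3 other-organ libraries, high-fat water against chow water called 7 regulators (4 with all libraries), 4 adrenergic genes (2), 4 restraining genes (2) and 4 relatives (1). The count over all 21409 genes tested there rose too, to 4546 (3232 with all libraries). The 14 libraries without muscle transcripts leave 3 or 4 mice per group. Depth limits Dio2 at its lowest, and the spread between mice limits the other genes.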
